A study of Arabidopsis thaliana with 48 samples.

Results

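HYH (HY5 HOMOLOG, AT3G17609) is a single gene read here by the 1 probe set that the annotation of the ATH1 array assigns to it, out of 13286 genes with a named probe set. It was taken by its locus and followed over all 16 groups of the experiment, with no measured value used to choose it. HYH encodes a basic leucine zipper (bZIP) transcription factor, the closest relative of HY5, and the pair act in overlapping ways when seedlings switch from growth in darkness to growth in light. Both proteins bind ACGT-core elements in the promoters of light-responsive genes, among them genes of flavonoid synthesis. In darkness the COP1/SPA ubiquitin ligase marks both proteins for degradation, and photoreceptors (phytochromes for red and far-red, cryptochromes for blue and UV-A, UVR8 for UV-B) restrain that ligase in light. The arrays report RNA, so HYH protein was not measured.

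Seedlings of accession Col-0 of Arabidopsis thaliana were raised for 94 h without light at 22 °C, after which hypocotyls and cotyledons made up most of the harvested tissue. One set stayed dark, and 7 sets received light: white light, blue light (453 nm), red light (650 nm) or far-red light (715 nm), each without a break at 10 µmol per m2 per s, 1 min of red light at 50 µmol per m2 per s and then darkness (red pulse), or 5 min of UV-A at 7 W per m2 (behind a 327 nm filter), or 5 min of UV-A/B, and then darkness. The UV-A/B treatment, at 7 W per m2 behind a 307 nm filter, is spelled out in the label of 1 of the 6 arrays. That array is replicate 2 at 45 min, which is also described as dark. Every condition was harvested at 45 min and at 4 h on 3 arrays each, 48 in all. All groups are 1 wild-type genotype, and whether the 3 arrays of a group stem from separate cultures is not stated, so the p-values reflect no more than array-to-array spread, possibly of technical origin.

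Signals are MAS5 intensities as the authors deposited them, on a linear scale in arbitrary units, and array medians ran from 37.1 to 43.8. Arrays of 1 group correlated at 0.953 to 0.977 over probe sets on the log2(intensity + 1) scale, and no array was a copy of another. The cotyledon markers with a named probe set, PORB (a protochlorophyllide reductase of chlorophyll synthesis) and ICL (isocitrate lyase of lipid reserve use), were above the 40th percentile of the array on all 48 arrays, with medians of 857 and 895. Of the root markers EXPA7 was above it on 0 arrays and EXPA18 on 25, with medians of 5.25 and 27.7. The tissue was bulk material, in which fewer expressing cells and less RNA per cell cannot be told apart. The labels of 2 arrays disagree with their titles or with the other arrays of their group: replicate 2 of the UV-A/B group at 45 min is described as dark, and for replicate 1 of the dark group at 4 h the germination light is not that of the other arrays. Each set of HYH comparisons that uses these arrays is followed by its values without them.

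HYH was at its lowest in darkness. At 45 min the dark arrays read 3.3, 1.4 and 1.1, a mean of 1.93 ± 1.19 (SD, n = 3), which placed HYH between percentiles 3.9 and 11.4 of its array. At 4 h they read 9.8, 5.9 and 1.2, a mean of 5.63 ± 4.31 (SD, n = 3), at percentiles 4.4 to 22. The 2 dark groups overlap, and their difference of 0.97 on the log2(intensity + 1) scale was not called (limma, adjusted p = 0.437), in a comparison in which 0.0317% of the 15777 probe sets tested were called. Throughout, a difference is called where its Benjamini-Hochberg adjusted p over these probe sets is under 0.05, and each difference between 2 groups has a standard error of 0.38. With readings this low, the log2 changes against darkness depend on the constant added before the logarithm, and values with 16 added follow those with 1 added.

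After 45 min of treatment HYH was higher under each of the 7 lights. Under far-red light the 3 arrays read 23.2, 25.1 and 16.8, a mean of 21.7 ± 4.35 (SD, n = 3). After the red pulse they read 21.3, 22.2 and 18.1, a mean of 20.5 ± 2.15. Under continuous red light they read 23.3, 11.3 and 19.3, a mean of 18.0 ± 6.11. In these 3 groups HYH lay below the 40th percentile of the array on every array and above every dark array. Blue light gave 29, 26.6 and 22.3, a mean of 25.97 ± 3.39 (SD, n = 3). UV-A gave 39.5, 24.1 and 26.3, a mean of 29.97 ± 8.33, and UV-A/B gave 37.8, 51.6 and 21.6, a mean of 37 ± 15.02. The highest single reading at 45 min, 51.6, is that of the UV-A/B array described as dark, and it exceeds all 3 dark readings. White light gave 7.9, 28.9 and 12.9, a mean of 16.6 ± 10.97 (SD, n = 3). Its lowest and highest arrays stood further apart in proportion than those of any other light at this harvest. Both lay above the dark arrays of 45 min, although the lowest lay under the highest dark array of 4 h, 9.8.

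**Figure D1:**
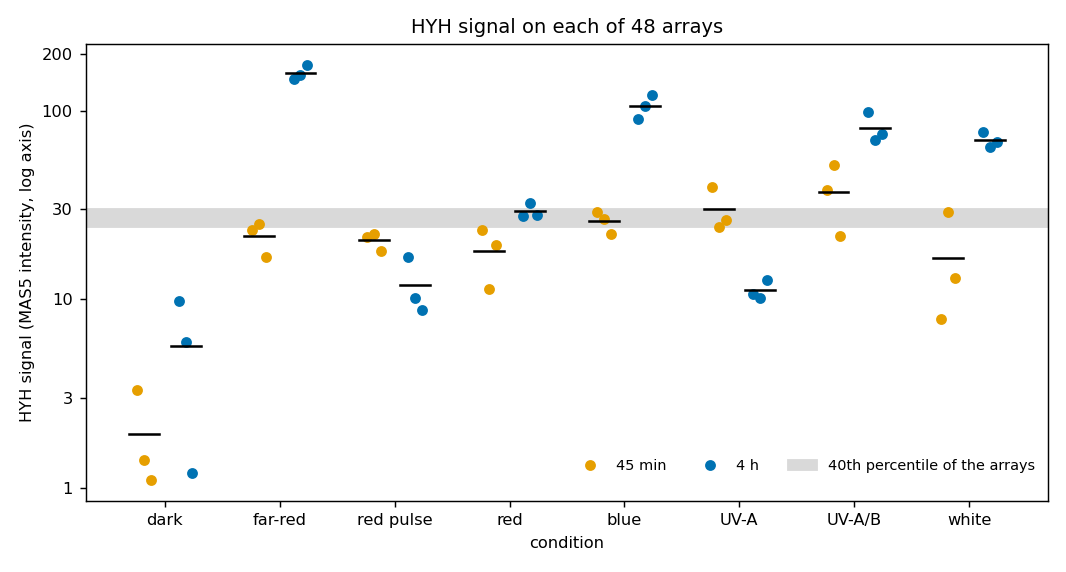
HYH signal (MAS5 intensity, log axis) on each of the 48 arrays, by condition, with 45 min in orange and 4 h in blue and the group mean as a bar. The grey band spans the 40th percentile of the arrays, 24.3 to 30.1. The far-red arrays at 4 h read 146.4 to 175.1, and the red pulse and UV-A arrays at 4 h lie below those of 45 min.

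Against the dark group of 45 min all 7 lights were called, each higher. The log2 difference was 3.01 for far-red light (adjusted p = 3.51e-07 by limma, where 2.09% of probe sets were called), 2.94 for the red pulse (adjusted p = 5.68e-07, where 2.21% were called) and 2.71 for red light (adjusted p = 2.96e-06, where 2.33% were called). Blue light gave 3.27 (adjusted p = 3.60e-08, where 4.08% were called) and white light 2.47 (adjusted p = 1.27e-05, where 3.30% were called). UV-A gave 3.44 (adjusted p = 7.77e-09, where 5.70% were called) and UV-A/B 3.69 (adjusted p = 1.23e-09, where 9.04% were called). As ratios of mean signal these are increases of 8.57-fold under white light to 19.1-fold under UV-A/B. Light and dark arrays did not overlap in any of the 7 comparisons, a separation with light higher that 5.96% of probe sets showed for white light, 6.61% for red, 6.66% for the red pulse, 6.78% for far-red, 7.42% for blue, 7.65% for UV-A and 8.49% for UV-A/B. By size of increase HYH ranked between 5 and 21 of the 15777 probe sets, the highest rank being that under blue light and the lowest that under white light.

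The 45 min increases lay in a low range of the arrays. Only 6 of the 21 light-treated arrays put HYH above the 40th percentile: 2 each of UV-A and UV-A/B and 1 each of blue and white light. With 16 added before the logarithm the 7 differences were 0.81 to 1.52 and all remained called, the largest adjusted p being 0.00383 for white light, and the ranks were 72 to 155. When every signal under the array's 40th percentile was raised to it, none of the 7 was called and the differences were -0.05 to 0.39. With the 2 groups of a comparison fitted alone, red and white light were not called (adjusted p = 0.0717 and 0.199). Without the UV-A/B array described as dark, the UV-A/B difference was 3.41 and called.

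At 4 h the group means under the 7 lights ran from 11.2 to 159. Far-red light gave the highest HYH readings of the experiment, 146.4, 154.8 and 175.1, a mean of 159 ± 14.8 (SD, n = 3), at percentiles 78.6 to 82.2. Blue light gave 90.0, 106.1 and 121.1, a mean of 106 ± 15.6. UV-A/B gave 98.5, 69.9 and 75.3, a mean of 81.2 ± 15.2. These arrays all stood above every array of 45 min, as did those of white light, which read 77.1, 64.1 and 67.9, a mean of 69.7 ± 6.68 (SD, n = 3). Continuous red light gave 27.5, 32.4 and 27.9, a mean of 29.3 ± 2.72, near the 40th percentile of the arrays. The red pulse gave 16.7, 10.2 and 8.8, a mean of 11.9 ± 4.22 (SD, n = 3). UV-A gave 10.7, 10.1 and 12.7, a mean of 11.2 ± 1.36. The red pulse and UV-A groups overlap each other, and the lowest red pulse array, 8.8, lies under the highest dark array, 9.8. As a share of the far-red mean, blue light reached 66.6%, UV-A/B 51.2%, white light 43.9% and red light 18.4%, with the red pulse at 7.495%, UV-A at 7.03% and darkness at 3.55%.

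Of the 7 lights 5 were called higher than darkness at 4 h. The log2 difference was 4.86 for far-red light (adjusted p = 2.01e-13 by limma, where 29.1% of probe sets were called), a 28.2-fold ratio of means. It was 4.28 for blue light (adjusted p = 9.05e-12, where 26.4% were called) and 2.46 for red light (adjusted p = 4.84e-06, where 16.1% were called). UV-A/B gave 3.89 (adjusted p = 2.09e-10, where 22.4% were called) and white light 3.69 (adjusted p = 5.93e-10, where 21.3% were called). The red pulse difference of 1.19 (95% interval 0.42 to 1.96) was not called (adjusted p = 0.0913, where 2.73% were called), nor was that of UV-A, 1.15 (0.38 to 1.92; adjusted p = 0.0753, where 4.70% were called). Both depend on the dark arrays, which spread widely. Without replicate 1 of the dark group, whose germination light differs in its label, the red pulse difference was 1.68 (adjusted p = 0.0138) and that of UV-A 1.64 (adjusted p = 0.0115), both called. Without replicate 3 of the dark group they were 0.53 and 0.49, and not called. Leaving out the same dark replicate 1 gave 5.35 for far-red, 4.77 for blue, 4.38 for UV-A/B, 4.18 for white and 2.95 for red light, all called, and over all arrays left out in turn the far-red difference ran from 4.21 to 5.35. With 16 added before the logarithm the differences were 3.03 for far-red, 2.50 for blue, 2.18 for UV-A/B, 2.00 for white and 1.08 for red light, all called, and 0.38 for the red pulse (adjusted p = 0.373) and 0.35 for UV-A (adjusted p = 0.349), not called. Groups did not overlap in 6 of the 7 comparisons, the red pulse being the exception. The share of probe sets with the same separation was 10.2% for UV-A, 17.7% for red light, 18.0% for UV-A/B, 19.4% for white, 20.2% for blue and 21% for far-red light. With signals under the 40th percentile raised to it, the far-red, blue, UV-A/B and white light differences were 1.42 to 2.604 and called, and those of red light (0.16), the red pulse (0.06, adjusted p = 0.904) and UV-A (0.04, adjusted p = 0.942) were not called. The cotyledon markers moved with these groups: PORB was called lower at 4 h under far-red (-1.55), blue (-1.13) and white light (-1.01), ICL lower under every light except the red pulse (-1.23 to -0.87), and neither at 45 min. Their part in the HYH levels was not tested.

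**Figure D2:**
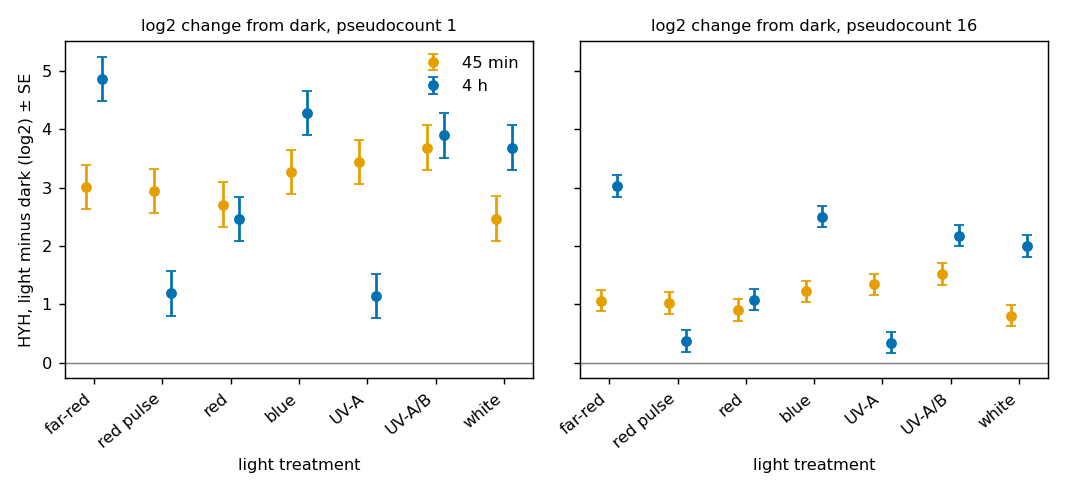
Difference of HYH between each light and the dark group of its harvest (log2, points) with its standard error (bars), with 1 added to the signal on the left and 16 on the right, 45 min in orange and 4 h in blue. Both panels place far-red light highest at 4 h and the red pulse and UV-A lowest, and the scale of the changes falls from a top value of 4.86 to 3.03.

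Between 45 min and 4 h HYH moved in opposite directions under different lights. It rose under far-red light by 2.83 log2 units (adjusted p = 1.73e-07 by limma, where 25.6% of probe sets were called), from a mean of 21.7 to 159. It rose under blue light by 1.98 (adjusted p = 0.000109, where 22.9% were called) and under white light by 2.19 (adjusted p = 3.19e-05, where 18.5% were called). Under UV-A/B it rose by 1.18 (adjusted p = 0.0230, where 19.9% were called). After UV-A it fell by 1.32 log2 units (adjusted p = 0.0192, where 9.55% were called), from a mean of 29.97 to 11.2, with no overlap of the groups. After the red pulse the difference was -0.78 (adjusted p = 0.327, where 4.35% were called) although the groups did not overlap, a separation with 4 h lower that 10.2% of probe sets showed. Under continuous red light it was 0.73 (adjusted p = 0.251, where 12.0% were called), again without overlap. Groups did not overlap in 7 of the 8 conditions, darkness being the exception. The share of probe sets so separated, in the direction of HYH, was 10.3% for UV-A (lower at 4 h), and with 4 h higher 18.1% for far-red, 16.8% for blue, 16% for white, 16.2% for UV-A/B and 14.1% for red light. The UV-A call was lost when replicate 1 of 45 min (adjusted p = 0.104), replicate 1 of 4 h (0.0585) or replicate 2 of 4 h (0.0724) was left out, and the UV-A/B call without UV-A/B 45 min replicate 3 (0.176) or UV-A/B 4 h replicate 1 (0.0980). With signals under the 40th percentile raised to it, the UV-A change was -0.18 and not called (adjusted p = 0.574). Without the arrays whose labels conflict, the UV-A/B change was 1.46 and called (adjusted p = 0.00641), and the dark difference was 0.48 and not called (adjusted p = 0.854). Harvest time and seedling age move together in these differences.

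Subtracting the dark groups gives the change in the light effect itself. It grew under far-red light by 1.86 log2 units (standard error 0.54, adjusted p = 0.0134 by limma, where 15.0% of probe sets were called). It shrank for UV-A, with a value of -2.29 (adjusted p = 0.00640, where 4.17% were called). The values for the other lights were 1.22 for white light (adjusted p = 0.182, where 8.73% were called), 1.01 for blue light (0.260, where 11.4% were called), 0.21 for UV-A/B (0.868, where 10.0% were called), -0.25 for red light (0.859, where 6.80% were called) and -1.76 for the red pulse (0.0966, where 1.72% were called). With 16 added before the logarithm blue light, 1.28, and white light, 1.19, were called too, which makes 4 of 7, and the far-red value was 1.96 and that of UV-A -0.998. With signals under the 40th percentile raised to it, the UV-A value was -0.10 and not called (adjusted p = 0.885). Those of blue light (1.96, adjusted p = 1.93e-08), white light (1.41, adjusted p = 1.55e-05), UV-A/B (1.23, adjusted p = 0.000104) and far-red light (2.58) were called. The differences at 45 min were then 0.028 for far-red, 0.048 for blue, 0.0019 for white light, 0.14 for UV-A and 0.39 for UV-A/B. These values therefore mainly restate the differences at 4 h and cannot show whether the effect changed. Leaving out replicate 3 of the dark group at 4 h ended the far-red call (1.20, adjusted p = 0.0987), as did leaving out replicate 1 of the dark group at 45 min (1.54, adjusted p = 0.0579), and both calls were lost with the 4 groups of each fitted alone (adjusted p = 0.0832 for far-red light and 0.209 for UV-A). The red pulse value became called when either of the same dark arrays was left out (-2.41, adjusted p = 0.00252, and -2.07, adjusted p = 0.0441). The white light value became called without replicate 1 of the dark group at 4 h (1.71, adjusted p = 0.0386) or without replicate 2 of the white group at 45 min (1.69, adjusted p = 0.0364). With single arrays left out the blue light value ran from 0.35 to 1.499 and was not called, and that of UV-A ran from -2.95 to -1.80. Without both arrays whose labels conflict, far-red light gave 2.35 (adjusted p = 0.00126), UV-A -1.80 (adjusted p = 0.0422) and white light 1.71 (adjusted p = 0.0348), all called. The values of blue light (1.499), UV-A/B (0.98), red light (0.24) and the red pulse (-1.27) were then not called.

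Lights were also compared with each other, in 21 pairs at each harvest. At 45 min the order of group means from the highest was UV-A/B, UV-A, blue, far-red, red pulse, red, white and dark. None of the 21 pairs of lights was called by limma (0 at adjusted p under 0.05). The share of all probe sets called in a pair was, for far-red light, 0.177% against the red pulse, 0.127% against red light, 0.437% against blue light, 1.1% against UV-A, 5.20% against UV-A/B and 0.247% against white light. The red pulse had 0.00% against red light, 0.564% against blue light, 0.589% against UV-A, 4.61% against UV-A/B and 0.171% against white light. Red light had 0.513% against blue light, 0.336% against UV-A, 4.92% against UV-A/B and 0.0380% against white light. Blue light had 0.875% against UV-A, 4.66% against UV-A/B and 0.00634% against white light. UV-A had 2.16% against UV-A/B and 0.247% against white light. UV-A/B had 4.01% against white light. The largest difference was that of UV-A/B over white light, 1.21 (95% interval 0.44 to 1.98, adjusted p = 0.0618). It was called without replicate 2 of the white group (1.69, adjusted p = 0.00728) or without replicate 3 of the UV-A/B group (1.55, adjusted p = 0.0225). With single arrays left out it ran from 0.81 to 1.69. Without the arrays whose labels conflict it was 0.94 and not called (adjusted p = 0.261). UV-A/B over red light was then not called either (adjusted p = 0.445), and 0 of the 21 pairs were called. With 16 added before the logarithm 2 pairs were called, UV-A/B over white light (0.71, adjusted p = 0.0137) and over red light (0.62, adjusted p = 0.0380). Between neighbours in the order, far-red light over the red pulse was 0.06 (95% interval -0.71 to 0.83).

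At 4 h the order of group means was far-red, blue, UV-A/B, white, red, red pulse, UV-A and dark, and 13 of the 21 pairs of lights were called. The share of all probe sets called in a pair was, for far-red light, 17.9% against the red pulse, 7.33% against red light, 0.228% against blue light, 16.9% against UV-A, 17.9% against UV-A/B and 2.88% against white light. The red pulse had 4.09% against red light, 15.0% against blue light, 0.0380% against UV-A, 12.5% against UV-A/B and 9.56% against white light. Red light had 4.15% against blue light, 4.63% against UV-A, 13.9% against UV-A/B and 0.602% against white light. Blue light had 13.5% against UV-A, 13.2% against UV-A/B and 0.456% against white light. UV-A had 8.74% against UV-A/B and 9.16% against white light. UV-A/B had 13.6% against white light. Far-red, blue, UV-A/B and white light each stood above the red pulse and UV-A, by 2.50 to 3.72 log2 units, with adjusted p at most 5.55e-06. Far-red light stood above red light by 2.40 (adjusted p = 1.37e-05), blue above red by 1.81 (adjusted p = 0.00180) and UV-A/B above red by 1.43 (adjusted p = 0.00751). Red light stood above the red pulse by 1.27 (adjusted p = 0.0453) and above UV-A by 1.32 (adjusted p = 0.0341). Both of these last calls are close to the threshold. They were lost with no filter on low signals (adjusted p = 0.0679 and 0.0521), with signals raised to the 40th percentile (0.951 and 0.799), and when single arrays were left out. Red over the red pulse was also lost with quantile normalization (adjusted p = 0.0607) and with no intensity trend (adjusted p = 0.0504). Red over the red pulse was lost on leaving out each of the 3 red arrays or replicate 2 or 3 of the red pulse (adjusted p = 0.0984 to 0.208), and red over UV-A on leaving out any of the 6 arrays (adjusted p = 0.0528 to 0.121).

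Among neighbours in the order at 4 h, only red light and the red pulse were called with 1 added, a call close to the threshold. Far-red over blue light was 0.59 (95% interval -0.18 to 1.36, adjusted p = 0.999), although the far-red arrays (146.4 at the lowest) and the blue arrays (121.1 at the highest) did not overlap, as in 6.60% of probe sets. Blue over UV-A/B was 0.38 (-0.39 to 1.15, adjusted p = 0.608) and UV-A/B over white light 0.21 (-0.56 to 0.98, adjusted p = 0.806). White over red light was 1.22 (0.45 to 1.99, adjusted p = 0.198), with white arrays of 64.1 or more against red arrays of 32.4 or less, a separation that 7.5% of probe sets showed. The red pulse and UV-A means were within 0.04 of each other (-0.73 to 0.81, adjusted p = 1.00). Far-red light over UV-A/B was 0.97 (adjusted p = 0.0717), and was called once replicate number entered the fit as a block (adjusted p = 0.0455), a pair in which same-numbered arrays deviate together. With 16 added before the logarithm, 16 pairs were called, the additional ones being far-red over UV-A/B (0.85, adjusted p = 0.000567), far-red over white (1.03, adjusted p = 0.000227) and white over red light (0.92, adjusted p = 0.00408). The additional pairs were also called with signals raised to the 40th percentile (adjusted p at most 7.15e-06) and with their groups fitted alone (at most 0.00789). With adjustment over the family of contrasts, white over red (0.0348) and far-red over white light (0.0449) were called. Far-red over UV-A/B was called without the arrays whose labels conflict (0.0442). With single arrays of these pairs left out, none was called (0.0732 or more).

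**Figure D3:**
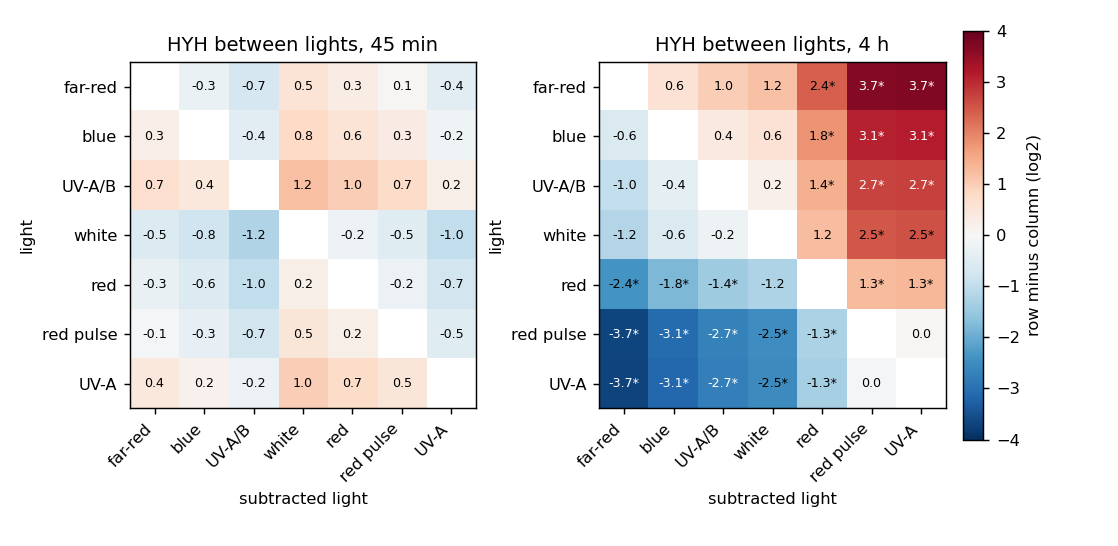
Differences of HYH between pairs of lights (row minus column, log2) at 45 min on the left and 4 h on the right, where a star marks an adjusted p under 0.05. No pair is starred at 45 min, and at 4 h the starred cells are those between the upper lights and red, red pulse and UV-A, other than white against red, and red against the red pulse and UV-A.

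Red light gives a comparison of dose form within 1 colour. At 45 min the pulse (20.5 ± 2.15) and continuous red light (18.0 ± 6.11) overlapped, with a difference of 0.23 (95% interval -0.53 to 1.00). At 4 h the continuous red arrays, 27.5 or more, all stood above those of the pulse, 16.7 or less, as in 10.6% of probe sets. UV-A and UV-A/B, pulses of the same length, also overlapped at 45 min (29.97 ± 8.33 and 37 ± 15.02), and without the UV-A/B array described as dark the difference changed sign, from -0.24 to 0.03. At 4 h the UV-A/B arrays read 69.9 or more and the UV-A arrays 12.7 or less, a difference of 2.75 (adjusted p = 1.26e-06, where 8.74% of probe sets were called and 10.8% were separated this way). How the light doses of the 7 treatments compare was not measured here.

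The other genes of the pathway were read from lists of known components, chosen with earlier results of these data known. Of 30 regulators around HY5 and COP1, 2 had a named probe set and both were tested. FHL, a carrier that helps phytochrome A into the nucleus, was called lower in 7 of the 14 comparisons with darkness, 5 of them at 4 h. At 4 h it fell under far-red light from 95.6 ± 11.9 to 37.2 ± 3.57 (SD, n = 3), a log2 change of -1.33 (adjusted p = 2.17e-09), and under blue light to 41.3 ± 3.32 (-1.19, adjusted p = 3.83e-08). CUL4, the cullin scaffold of COP1-type ubiquitin ligases, was called in 0 of 14 comparisons, with changes of -0.24 to 0.16. HY5, the photoreceptors and the PIF factors are not analysed here.

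Known or proposed targets of HY5 and HYH were represented by 9 tested genes of 38 on the list. At 45 min 1 to 3 of the 9 were called higher and 0 lower (red pulse 1, red 2, the other lights 3 each). Over all probe sets the shares called higher and lower were 1.60% and 0.482% for far-red, 1.67% and 0.532% for the red pulse, 1.74% and 0.596% for red, 2.26% and 1.81% for blue, 3.70% and 2.00% for UV-A, 5.29% and 3.75% for UV-A/B and 2.03% and 1.27% for white light. At 4 h 7 of 9 were called higher and 2 lower under far-red light (13.6% and 15.4% of all probe sets), and 6 and 2 after UV-A/B (10.9% and 11.4%). Blue light gave 5 higher and 2 lower (12.8% and 13.6%), white light 5 and 2 (11% and 10.2%), and red light 4 and 2 (8.49% and 7.62%). The red pulse gave 1 and 1 (1.81% and 0.919%) and UV-A 0 and 2 (2.55% and 2.16%). Both lights also had the smallest shares of all probe sets called at 4 h. The median log2 change of the 9 was 1.93 under far-red light and 0.06 after UV-A at 4 h, against -0.03 and -0.0013 over all probe sets.

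UGT78D2, a glucosyltransferase of flavonols and anthocyanins, was called higher in 13 of 14 comparisons. Its signal rose at 45 min from 32.6 ± 4.84 in darkness (SD, n = 3) to 91.7 ± 7.15 after the red pulse and 218 ± 35.4 after UV-A/B. At 4 h it rose from 30.9 ± 3.46 to 461 ± 66.6 under far-red light (3.85, adjusted p = 2.86e-22), and was 40.8 ± 2.38 after UV-A (0.39, adjusted p = 0.127), the comparison that was not called. AT3G44450 was called higher in 11 and AT1G70000 in 10 comparisons, with far-red log2 changes at 4 h of 3.35 and 1.93. COR27, a cold- and clock-regulated gene, changed the other way: it was called in 0 comparisons at 45 min and lower in all 7 at 4 h, from -2.17 after UV-A/B to -1.26 after the red pulse. A pair of genes outside the naming rule, picked after their values were seen, show changes at 4 h alone. CHIL, a chalcone isomerase-like protein of flavonoid synthesis, rose from 4.47 ± 0.55 to 250 ± 51.7 under far-red light (5.50, adjusted p = 4.11e-13), and UGT84A1, a glucosyltransferase of hydroxycinnamates, rose after UV-A/B from 2.07 ± 0.38 to 131.4 ± 16.6 (5.43, adjusted p = 8.75e-09), rose by 1.89 under far-red light (adjusted p = 0.0178) and was not called under the remaining lights.

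**Figure D4:**
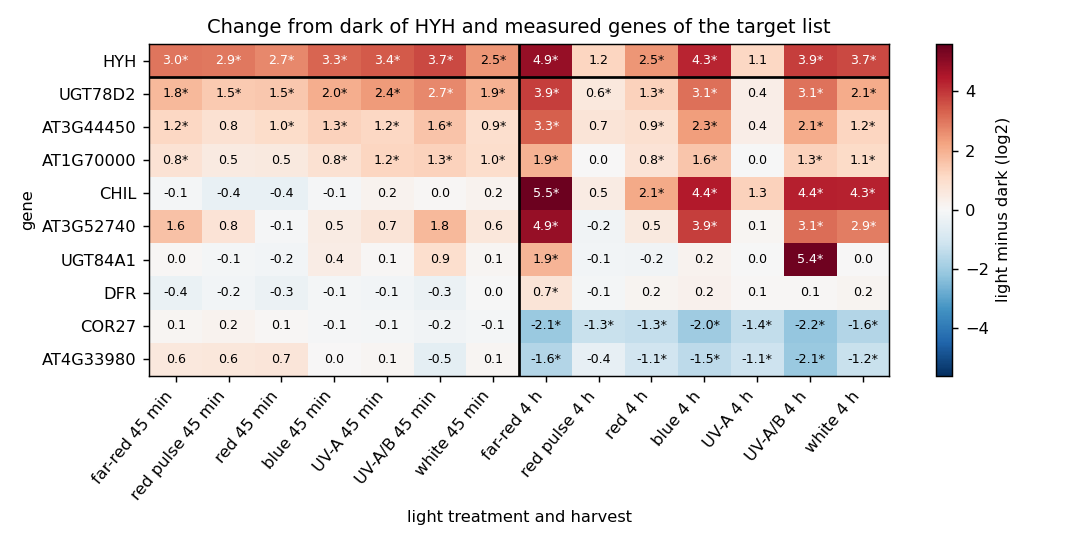
Log2 change from darkness of HYH (top row) and of the 9 tested genes on the target list, for 7 lights at 45 min and 7 at 4 h, where a star marks an adjusted p under 0.05. HYH is starred at 45 min under every light, UGT78D2 likewise, and CHIL only at 4 h.

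Of the 60 listed members of the bZIP family, 15 were tested beside HYH. At 45 min 1 of the 15 was called lower under far-red light (0.482% of all probe sets), the red pulse (0.532%) and red light (0.596%), 3 under blue light (1.81%), UV-A (2.00%) and white light (1.27%), and 2 after UV-A/B (3.75%). Called higher at 45 min were 1 after UV-A (3.70%) and 2 after UV-A/B (5.29%), and 0 under the other lights. At 4 h 6 were called lower under far-red (15.4%), blue (13.6%) and white light (10.2%), 5 under red light (7.62%), 4 after UV-A/B (11.4%), and 1 each after the red pulse (0.919%) and UV-A (2.16%). Called higher at 4 h were 1 under far-red light (13.6%) and 1 after UV-A/B (10.9%), and 0 under the other lights. Their median log2 change ran from -0.32 under white light at 4 h to -0.06 after the red pulse at 45 min. The members called most often were all called lower. bZIP52 was called in 11 of 14 comparisons, and at 45 min it fell from 224 ± 21.4 to 95.4 ± 5.89 under blue light (-1.22, adjusted p = 1.68e-09). BZIP61 was called in 8, and at 4 h it fell from 234 ± 23.6 to 43.5 ± 3.70 under far-red light (-2.40, adjusted p = 1.56e-18). bZIP44 was called in the 7 comparisons of 4 h, and fell from 217 ± 15.8 to 73.7 ± 6.41 under far-red light (-1.55, adjusted p = 1.71e-11). BZIP34 was called in 6, and fell at 45 min from 26.97 ± 6.74 to 2.1 ± 1.08 under white light (-3.21, adjusted p = 1.39e-05), a low signal in both groups. HYH was called in 12 of 14, each higher.

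Genes whose profile is most like that of HYH were sought over the 16 group means of log2(intensity + 1), among 8665 other tested probe sets of 1 named gene. These correlations are descriptions over 16 points that share arrays and dark groups. The median r was -0.10, and 33 probe sets exceeded 0.9. The 10 highest were AT1G50020 (r = 0.970), AT3G56290 (0.961), AT1G50290 (0.958), AT3G52950 (0.954), AT1G64500 (0.939), AT1G06000 (0.933), PDC2 (0.931), AT3G56080 (0.931), AT2G33250 (0.930) and tny (0.929). Spearman's rho for these ran from 0.803 (AT3G56080) to 0.968 (AT1G50020 and AT3G56290). Within the 8 groups of 45 min their r ran from 0.848 (tny) to 0.960 (PDC2), and within the 8 groups of 4 h from 0.955 (AT3G56080) to 0.993 (AT1G06000). The choice of scale matters for the list: 6 of the 10 were again among the top 10 over the 48 single arrays, and 2 of the 10 with 16 added before the logarithm.

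Values of 3 of these genes show the shape of the profile. AT1G50020 had a mean signal of 215 ± 20.01 (SD, n = 3) in the dark group of 45 min, 460 ± 70.2 after UV-A at 45 min, 797 ± 81.6 under far-red light at 4 h and 292 ± 17.1 after UV-A at 4 h. tny (TINY, an AP2/ERF transcription factor) had 144 ± 9.49, 404 ± 51.6, 812 ± 61.5 and 210 ± 50.6 in the same groups. PDC2, a pyruvate decarboxylase, had 73.0 ± 12.7, 168 ± 31.04, 243 ± 23.96 and 98.7 ± 22.4. In each of the 3, as in HYH, UV-A at 45 min lies above UV-A at 4 h and far-red light at 4 h lies highest of these groups. The 3 genes were chosen for a profile like that of HYH, so this likeness follows from the choice. The 5 genes least like HYH were AT3G04860 (r = -0.931), AT2G27830 (-0.923), AT1G72820 (-0.922), AT3G54000 (-0.920) and GAT1_2.1 (-0.918), a glutamine amidotransferase by its name. The signal of GAT1_2.1 was 749 ± 48.2 in darkness at 4 h and 142 ± 27.4 under far-red light at 4 h. Of these 5, 4 were again among the lowest 5 over single arrays and 2 with 16 added.

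**Figure D5:**
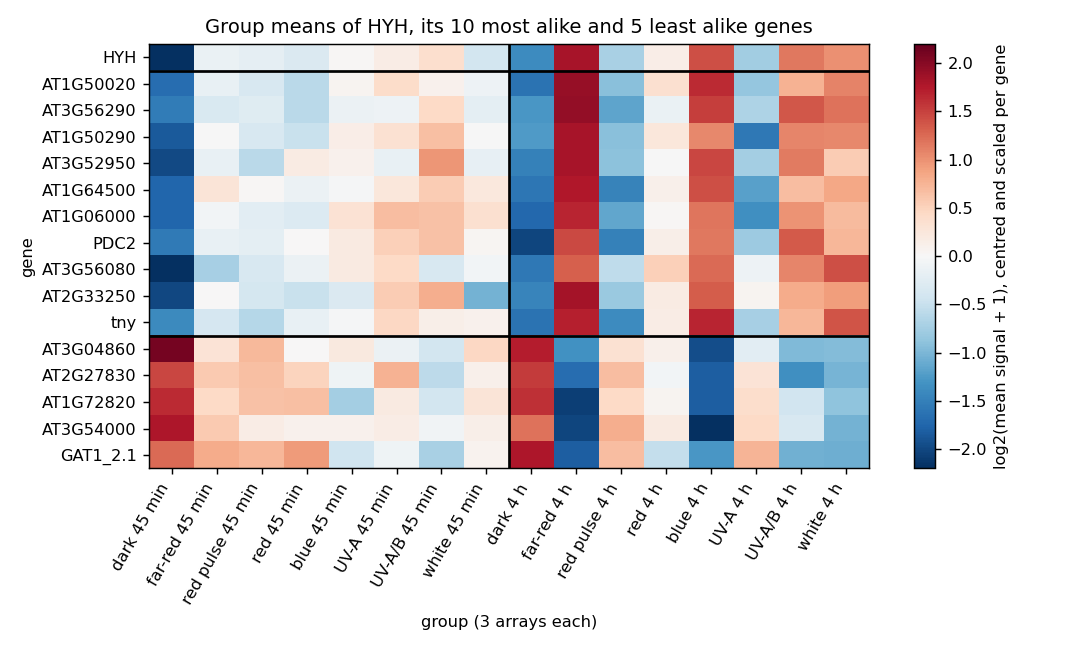
Group means of log2(mean signal + 1) for HYH, the 10 genes most like it and the 5 least like it, centred and scaled for each gene, over 16 groups of 3 arrays. HYH and the 10 genes are lowest in a dark group and highest under far-red light at 4 h, other than AT3G56080, which is highest under white light at 4 h, and the 5 genes are highest in a dark group.

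IAA31, the gene listed next to HYH in the RefSeq annotation (TAIR10.1), has a named probe set that read 2.2 to 18.1 over the 48 arrays, below the 40th percentile on each of them, and was not tested.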

How the data were processed

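RNA was hybridised to 48 ATH1 arrays in 16 groups of 3, assigned from the sample labels. The deposited values are linear intensity values from MAS5 (named in the submitters' processing notes), whose version and scaling are not given in the sources used here. Array medians lie at a like level. Detection calls were not used here. The number of arrays limits the precision.

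HYH was found by locus in the table of probe set genes, with symbols from RefSeq. Of 22810 probe sets, 64 controls were left out, and those above the array's 40th percentile in at least 3 arrays were tested (15777), which HYH passed with 21 arrays. Intensities were put on the log2(intensity + 1) scale, which understates the change of low signals, and fitted with limma 3.58.1 in R 4.3.3 (16 group means, eBayes with an intensity trend, 32 residual degrees of freedom). Of 71 contrasts, 14 set a light against darkness, 8 set 4 h against 45 min, 7 compare effects and 42 compare lights. P-values were adjusted by Benjamini-Hochberg over the probe sets of each contrast. The fit was tested on simulated data. Likeness is Pearson's r. Tables were handled with pandas 2.3.3 and drawn with matplotlib 3.10.9.

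Genes were named by rule: HYH, the 10 genes most and 5 least like it, and of each list all members where 8 or fewer were measured, otherwise the 4 called most often. The members and lists were chosen with earlier results of these data known. Replicate numbers were checked for pairing: every same-numbered pair of arrays correlated over 0.1 in 5 of 7 comparisons with darkness at 45 min, 1 of 7 at 4 h, 5 of 8 between harvests, and 10 and 13 of 21 pairs of lights. The title of far-red 45 min replicate 2 carries 2 replicate numbers, of which the last was used. Alternatives were a pseudocount of 16, a floor at the 40th percentile, no filter, quantile normalization, groups fitted alone, no trend, the replicate block, adjustment over a family, and arrays left out.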

Additional observations from a re-analysis of the deposited data

Results flagged for a closer look

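A pair of HYH results differ between the harvests by a test of the difference itself. The effect of far-red light on HYH was 1.86 log2 units larger at 4 h than at 45 min, from 3.01 to 4.86 above darkness. It was called (limma, adjusted p = 0.0134), as were 15.0% of probe sets. All 3 far-red arrays at 4 h (146.4 to 175.1) stood above all 3 at 45 min (16.8 to 25.1), as in 18.1% of probe sets. The effect of UV-A on HYH differed by -2.29 log2 units, from 3.44 to 1.15 above darkness (limma, adjusted p = 0.00640, where 4.17% were called). All 3 UV-A arrays at 4 h (10.1 to 12.7) stood below all 3 at 45 min (24.1 to 39.5), as in 10.3% of probe sets. The UV-A difference was -0.998 and called with 16 added before the logarithm, -0.10 and not called with signals raised to the 40th percentile (adjusted p = 0.885), and not called with its groups fitted alone (adjusted p = 0.209). The far-red difference was 1.96 and called with 16 added, and not called with its groups fitted alone (adjusted p = 0.0832). It was not called either without replicate 3 of the dark group at 4 h (1.20, adjusted p = 0.0987). The same held without replicate 1 of the dark group at 45 min (1.54, adjusted p = 0.0579). With signals raised to the 40th percentile the far-red difference was 2.58 and called. The effects at 45 min were then 0.028 for far-red light and 0.14 for UV-A, so this setting cannot show how either effect changed.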

How the results depend on the processing

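The readings of HYH near the bottom of the arrays limit every value that involves darkness or 45 min. Raising signals to the 40th percentile gave light against darkness at 45 min of 0.028 (far-red), 0.042 (red pulse), -0.048 (red), 0.048 (blue), 0.14 (UV-A), 0.39 (UV-A/B) and 0.0019 (white), red light at 4 h 0.16, and 4 h against 45 min of -0.082 in darkness and -0.18 for UV-A. It gave changes in effect of 0.020 (red pulse), 0.21 (red), 1.96 (blue), -0.10 (UV-A, call lost), 1.23 (UV-A/B) and 1.41 (white), of which those of blue, UV-A/B and white light became called, and at 45 min -0.014 for far-red over the red pulse and -0.050 for red over white light. By construction this removes differences below that percentile, so its changes in effect mainly restate the differences at 4 h. Adding 16 gave changes in effect of 0.18 (red), 1.28 (blue) and 1.19 (white) and called 2 pairs at 45 min. Quantile normalization called 1 pair at 45 min and 4 lower regulator tests at 45 min, against 2. With the groups alone, red and white light at 45 min (2.71 and 2.47) and the changes in effect for far-red light (1.86) and UV-A (-2.29) were not called. With adjustment over the family of contrasts, and likewise with the replicate block, the red pulse (1.19) and UV-A (1.15) at 4 h and the red pulse change in effect (-1.76) were called. In both comparisons with darkness, and in some of the group pairs behind the change in effect, same-numbered arrays do not all deviate together. The block also called 1 pair at 45 min, and beside the far-red and UV-A/B pair changed no call where the numbers pair the arrays. Without the arrays with conflicting labels, an alternative listed with the others, the values were 1.68 (red pulse) and 1.64 (UV-A) at 4 h, 0.24 (red) and 1.71 (white) for changes in effect and 0.032 for UV-A over UV-A/B at 45 min. Leaving out single arrays gave, at 45 min, -0.58 to 0.032 for UV-A over UV-A/B, -0.31 to 0.035 for blue over UV-A, -0.048 to 0.23 for far-red over the red pulse, -0.050 to 0.44 for the red pulse over red, -0.16 to 0.71 for red over white light and 0 to 1 pairs called. At 4 h it gave 0.49 to 1.64 for UV-A and 0.53 to 1.68 for the red pulse against darkness, and -0.21 to 0.22 for the red pulse over UV-A. Between harvests it gave -1.46 to -1.11 (UV-A) and 0.85 to 1.46 (UV-A/B), and changes in effect of 1.20 to 2.35 (far-red), -2.41 to -1.27 (red pulse), -0.90 to 0.24 (red), 0.35 to 1.499 (blue), -2.95 to -1.80 (UV-A), -0.45 to 0.70 (UV-A/B) and 0.56 to 1.71 (white). The cause of the other changed calls was not tested. For HYH, the remaining alternatives for comparisons with darkness, between harvests and of effects kept direction and side of the threshold. Some calls of list members against darkness were kept in only 2 of 3 alternatives. By limma these were AT3G44450 under red light at 4 h (adjusted p up to 0.0603) and white light at 45 min (0.0774). The others were UGT78D2 after the red pulse at 4 h (0.0633) and bZIP44 after UV-A at 4 h (0.0565).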
